A study of Mus musculus and Homo sapiens with 18 samples.

Results

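The genes examined here encode the enzymes that build fatty acids and then lengthen or desaturate them: Acly, Acss2, Acaca, Fasn, Elovl5, Elovl6, Fads1, Fads2, Scd1 and Scd2. They were chosen by name for their place in the pathway, 10 symbols in each mouse table and 9 upper-case symbols in the human table, where SCD stands for both Scd1 and Scd2. Counts were given for 46882 lens genes, 54838 NLPC genes and 60880 HLE-B3 genes. All 10 members passed the filter on low counts in the lens, all 10 in the NLPCs and all 9 in HLE-B3 cells.

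RNA-seq was measured in 18 libraries, 3 in each of 6 groups. Whole lenses were taken at P17-19 from C57BL/6 mice carrying Nestin-CreERT2 with 1 floxed allele (QkL/+, called Ctrl) or with 2 (QkL/L, called Qk-iCKO), and both genotypes had received tamoxifen on P7 and P8. The loxP sites flank exon 2 of Qk, and Cre is limited to cells in which the Nestin promoter is active. NLPCs, lens progenitor-like cells, were made in culture from neural stem cells of P1 Nestin-CreERT2;QkL/L whole brain, with Noggin (100 ng/ml) first and bFGF (100 ng/ml), BMP4 (20 ng/ml) and BMP7 (20 ng/ml) afterwards; the groups are labelled WT and Qk-/-, the latter made with 4-hydroxytamoxifen. HLE-B3 is an immortalised human lens epithelial line, grown here with 20% serum and compared as WT cells and as QKI KO cells made with a CRISPR vector and enriched with puromycin. Nothing in the labels ties the 3 NLPC or HLE-B3 libraries of a group to separate derivations or clones, so their p-values measure the spread between these libraries, which may be technical.

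Fatty acid synthesis starts from cytosolic acetyl-CoA, which ATP citrate lyase (Acly) makes from citrate and acetyl-CoA synthetase 2 (Acss2) makes from acetate. Acetyl-CoA carboxylase (Acaca) turns it into malonyl-CoA, and fatty acid synthase (Fasn) joins the units into palmitate. Elovl6 lengthens palmitate, stearoyl-CoA desaturases (Scd1, Scd2 and human SCD) place the first double bond, and Fads2, Elovl5 and Fads1 act in turn on dietary polyunsaturated fatty acids. Many of these genes are classic targets of the SREBP transcription factors, and the membranes of lens fibre cells are rich in saturated lipids and cholesterol.

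The mouse promoters of Fasn and Fads2 are shown because, between the NLPCs and HLE-B3 cells, Fasn had fold changes of opposite sign and Fads2 was lower in both. Each run holds 250 bases before and 50 bases after the RefSeq start of transcription, 5′ to 3′ on the gene's own strand. Capitals mark matches on either strand to TCACNCCAC, a form of the sterol regulatory element, or to CCAAT, the NF-Y box, and these matches can overlap. The sequences are from RefSeq (GRCm38.p6).
Fasn (GRCm38.p6, chr11:120824498-120824797, minus strand): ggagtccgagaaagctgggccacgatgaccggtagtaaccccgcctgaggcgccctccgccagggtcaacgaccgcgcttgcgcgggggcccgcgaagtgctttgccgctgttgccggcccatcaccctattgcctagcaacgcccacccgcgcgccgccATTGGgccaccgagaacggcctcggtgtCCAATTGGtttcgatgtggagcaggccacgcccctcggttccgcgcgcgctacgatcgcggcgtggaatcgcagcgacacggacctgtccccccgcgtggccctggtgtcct
Fads2 (GRCm38.p6, chr19:10101454-10101753, minus strand): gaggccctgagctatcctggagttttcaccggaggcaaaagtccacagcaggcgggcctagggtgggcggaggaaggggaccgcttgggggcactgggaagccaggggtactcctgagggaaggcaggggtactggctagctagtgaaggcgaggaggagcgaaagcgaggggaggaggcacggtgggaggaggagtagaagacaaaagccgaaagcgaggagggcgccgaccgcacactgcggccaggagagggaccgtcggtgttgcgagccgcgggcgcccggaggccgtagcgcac
The Fasn promoter held 3 CCAAT matches, 2 of which overlap, and no TCACNCCAC. Neither letter string was in the Fads2 window. Over all promoters of this length, 1.24% of 32851 held TCACNCCAC and 37.4% held CCAAT. Of the 7 mouse members in the RefSeq table (all but Fads1, Scd1 and Scd2), 0 held TCACNCCAC and 4 held CCAAT. The Acaca window (chr11:84195188-84195487) lies inside its GENCODE gene model (chr11:84129672-84401651, plus strand) and not at the start of that model. The Fads2 window lies almost wholly inside its GENCODE gene model (chr19:10062765-10101746, minus strand). Most of its bases therefore lie after the start of that model. A match describes letters in the window and no more.

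The targeted gene was examined first in every library. Values are CPM, a gene's count relative to the total of its library after TMM scaling, in the order of replicates 1 to 3. Qk in the lens was at 120, 116 and 127 CPM in Ctrl and at 100.5, 86.9 and 106 CPM in Qk-iCKO. These groups did not overlap, but the log2 fold change of -0.31 (SE 0.142) did not pass edgeR's quasi-likelihood test with Benjamini-Hochberg adjustment (adjusted p = 0.200). In the NLPCs Qk was at 2675, 2444 and 2541 CPM in WT and at 3599, 3088 and 3510 CPM in the libraries labelled Qk-/-, so it was higher there (log2 fold change 0.41, SE 0.0914, adjusted p = 0.0270). A gene-level count also takes reads from exons outside the floxed exon 2 and cannot show whether that exon was lost, so directions in the NLPCs are given for the libraries labelled Qk-/-. QKI in HLE-B3 cells fell from 263, 262 and 257 CPM in WT to 100.2, 105 and 103 CPM in QKI KO (log2 fold change -1.34, SE 0.0539, adjusted p = 1.85e-11).

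Lens libraries held 10319320 to 16425331 counts, NLPC libraries 28154202 to 68243360 and HLE-B3 libraries 69190864 to 81384471. The TMM factor was 1.47 in lens Qk-iCKO replicate 1 and 0.887 to 0.960 in the other lens libraries. In the lens, 5 of 6 macrophage and leukocyte markers were higher in Qk-iCKO, with a summed level of 1.57 to 3.16 CPM in Ctrl and 61.0 to 75.8 CPM in Qk-iCKO. The 10 lens markers summed to 203007 to 223387 CPM in Ctrl and 112601 to 182796 CPM in Qk-iCKO, with 1 of the 9 tested lower and Lim2 at 0 or close to it in all 6 libraries. Of 4 adipocyte markers, Plin1 and Cidec were at 0 in every lens library and the list summed to at most 0.194 CPM. Pigment cell markers summed to 1.78 to 3.64 CPM in Ctrl and 4.14 to 103 CPM in Qk-iCKO, and photoreceptor markers to 1.72 to 395 CPM and 9.89 to 61.8 CPM. Qk-iCKO replicate 1 had the highest pigment sum and the lowest lens marker sum of its group. Its Dct was at 64.4 CPM, against 6.29 and 2.12 CPM in replicates 2 and 3. Its Cryaa was at 87379 CPM, against 142972 and 140710 CPM. In the NLPCs, lens markers summed to 143 to 156 CPM in WT and 96.8 to 118 CPM in Qk-/-, nearly all of it Cryab and Pax6, while Mip and Bfsp1 stayed under 0.5 CPM and Cryaa and Foxe3 under 0.7 CPM in every library. Astrocyte markers summed to 3890 to 4303 CPM in WT and 2288 to 2660 CPM in Qk-/- (2 of 4 lower, 1 higher), and oligodendrocyte markers to 253 to 262 and 114 to 168 CPM (2 of 6 lower). Neuron markers of the NLPCs summed to 33.0 to 49.5 CPM in WT and 41.7 to 49.6 CPM in Qk-/- (1 of 4 higher). Snap25 among them stood at 0.160 to 0.496 CPM in WT and 11.8 to 18.4 CPM in Qk-/-. In HLE-B3 cells lens markers summed to 622 to 731 CPM in WT and 1003 to 1155 CPM in QKI KO (1 of the 4 tested lower, 1 higher). CRYAA was at 0 throughout, while CRYAB was at 479 to 570 CPM in WT and 874 to 1015 CPM in QKI KO. Neuron markers summed there to 33.1 to 36.3 CPM in WT and 16.5 to 20.7 CPM in QKI KO, with 3 of 4 lower. The part of these cell type shifts in the values below was not tested, and in bulk RNA fewer cells of a type and less RNA per cell cannot be told apart.

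Upon Qk deletion in the lens, Scd2 and Fads1 fell and none of the 10 members rose. Lower calls took 3.88% and higher calls 8.38% of the 12201 genes tested by edgeR, so 2 of 10 lower and 0 of 10 higher stand against that background. At an unadjusted p under 0.05, 3 members were lower and 1 higher, where 11.4% and 17.3% of all genes were; the Wald test of DESeq2 called 2 lower and 0 higher. Ctrl and Qk-iCKO values were fully separate for 6 of 10 members, where 35.3% of all genes tested had such groups. The median log2 fold change of the members was -0.15, against 0.0064 over all genes tested.

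In the NLPCs, Scd2 and Fads2 were lower and Elovl6 was higher in the libraries labelled Qk-/-. That is 2 of 10 lower and 1 of 10 higher, where 5.96% and 4.74% of the 20371 genes tested were called. With the replicate number as a block, Fasn joined the higher members, which made 2. At an unadjusted p under 0.05, 5 were lower and 3 higher, against 14% and 12.4% of all genes, and groups did not overlap in 9 of 10 members, against 35.2%. The members' median was -0.23 and that of all genes 0.040.

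In HLE-B3 cells 8 of 9 members changed upon QKI knockout, in equal numbers each way. FASN, FADS1, FADS2 and SCD fell, and ACLY, ACACA, ELOVL5 and ELOVL6 rose, with ACSS2 the one not called. Lower calls took 16.3% and higher calls 17% of the 19049 genes tested. At an unadjusted p under 0.05 the counts were also 4 and 4, against 20.6% and 20.8%. Groups did not overlap in any of the 9, against 44.6% of all genes, and the median was -0.26, against -0.020 over all genes.

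**Figure D1:**
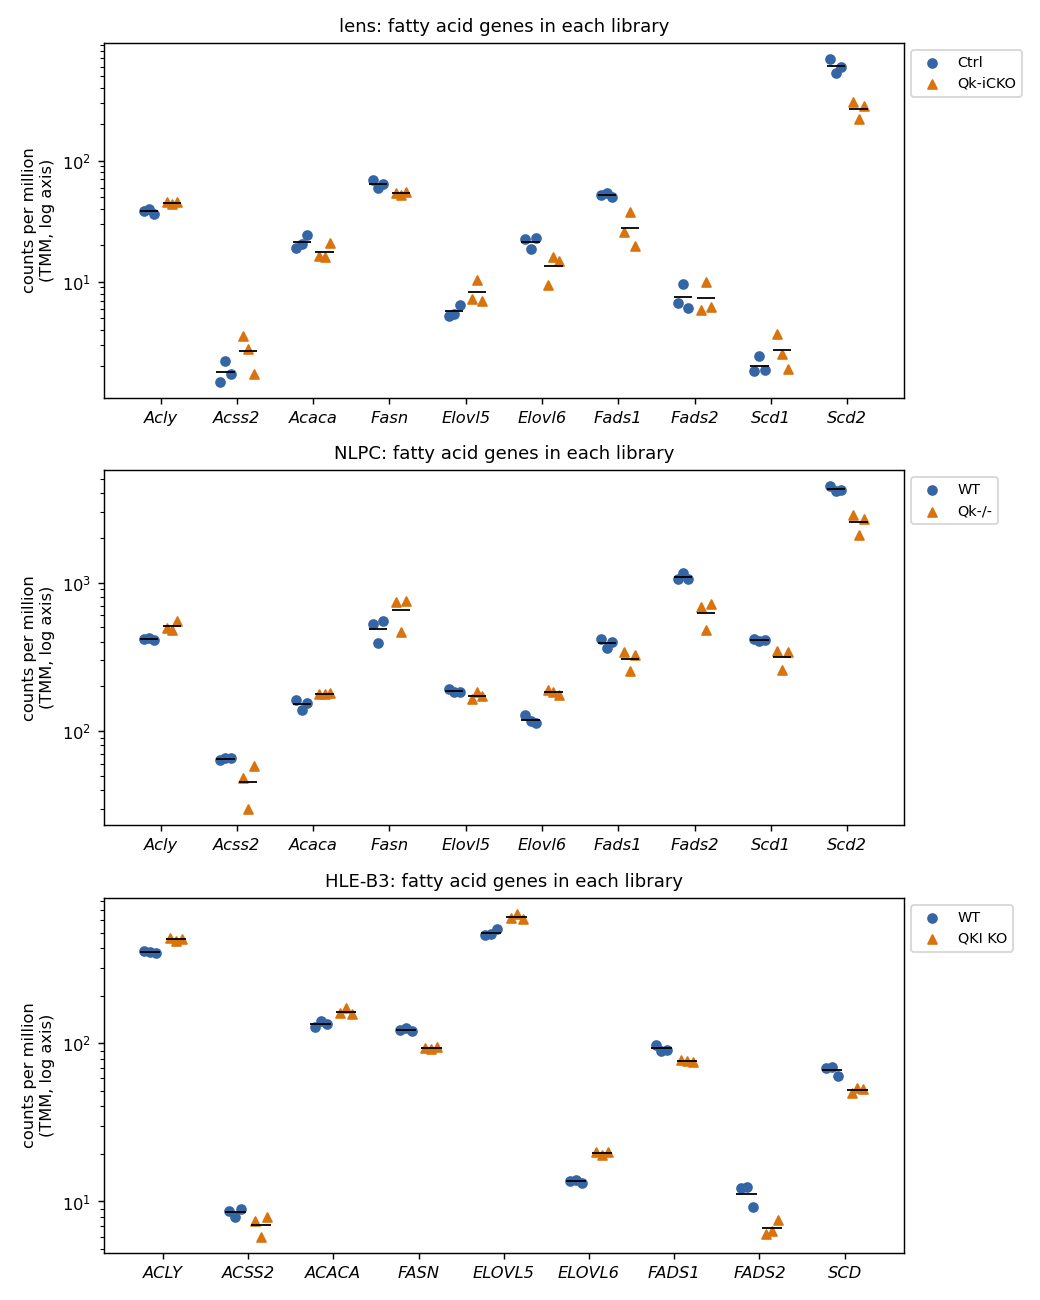
CPM (TMM-scaled, log axis) of each gene in every library, with circles for control and triangles for deletion libraries and a black line at each group mean. Scd2 falls from 529 to 695 in lens Ctrl to 220 to 305 in Qk-iCKO, and Elovl6 rises from 112 to 129 in NLPC WT to 175 to 189 in Qk-/-.

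Across the 3 systems, 3 mouse members had a log2 fold change below 0 throughout (Fads1, Fads2, and Scd2 with human SCD), 1 was above 0 throughout (Acly), and 6 had mixed signs. These counts describe signs only, since most of the single changes did not pass the test in every system.

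**Figure D2:**
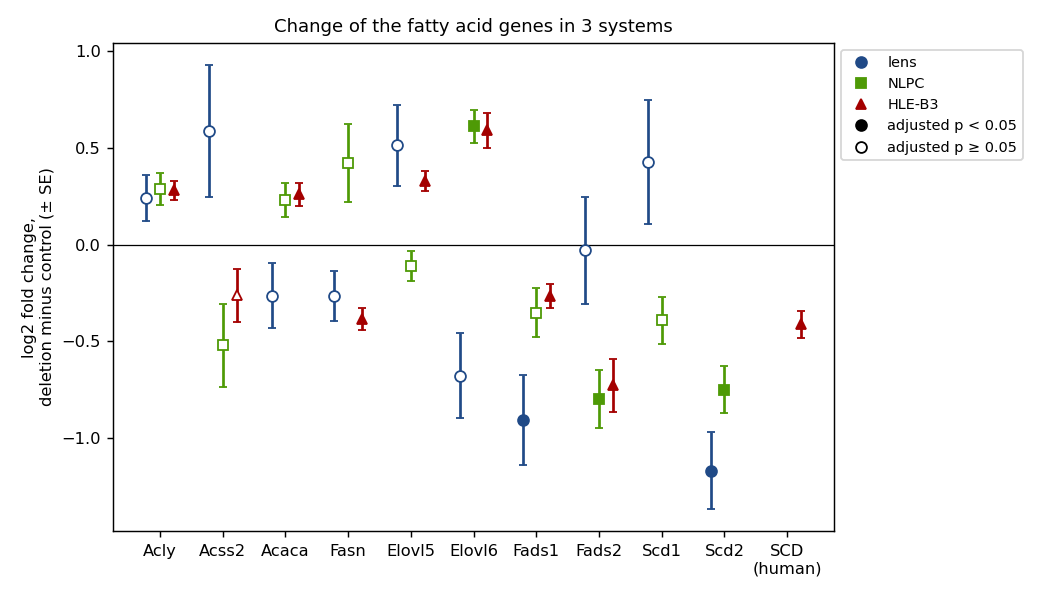
Log2 fold change of deletion minus control (± SE) for each gene in the lens (circles), NLPCs (squares) and HLE-B3 cells (triangles), filled where the adjusted p is under 0.05. The desaturases Fads1 and Scd2 reach -0.91 and -1.17 in the lens, and Elovl6 is at -0.68 there but at 0.61 in NLPCs and 0.59 in HLE-B3 cells.

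The suppliers of acetyl-CoA came first. Acly was at 38.6, 39.6 and 36.4 CPM in Ctrl lenses and at 45.7, 44.2 and 45.5 CPM in Qk-iCKO lenses. The groups did not overlap, and the log2 fold change of 0.24 (SE 0.120) did not pass the test (adjusted p = 0.236). In the NLPCs Acly was at 417, 423 and 411 CPM in WT and at 498, 480 and 547 CPM in Qk-/-, again without overlap (log2 fold change 0.29, SE 0.0823, adjusted p = 0.0664). DESeq2 called this change (adjusted p = 0.00698), as did edgeR without Qk-/- replicate 2 (0.0119) and on genes with at least 10 counts in every library (0.0310). ACLY in HLE-B3 cells rose from 381, 376 and 372 CPM to 466, 446 and 459 CPM (log2 fold change 0.28, SE 0.0490, adjusted p = 0.000277). The 3 fold changes of Acly lay between 0.24 and 0.29, but only the change in HLE-B3 cells passed.

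Acss2 was scarce in the lens, at 1.49, 2.21 and 1.72 CPM in Ctrl and 3.56, 2.81 and 1.72 CPM in Qk-iCKO, from 17 to 58 counts per library. The groups overlapped (log2 fold change 0.59, SE 0.341, adjusted p = 0.304). In the NLPCs it was at 63.8, 65.5 and 65.8 CPM in WT and at 48.2, 29.7 and 57.8 CPM in Qk-/-. All 3 Qk-/- libraries lay below WT, with replicate 2 far the lowest, and the log2 fold change of -0.52 (SE 0.212) did not pass (adjusted p = 0.165). It passed without Qk-/- replicate 2, at a smaller -0.29 (adjusted p = 0.0494), and when every gene with at least 1 count was kept (0.0181). ACSS2 in HLE-B3 cells was at 8.73, 7.95 and 9 CPM in WT and at 7.52, 5.98 and 7.92 CPM in QKI KO (log2 fold change -0.26, SE 0.138, adjusted p = 0.168).

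Neither enzyme of the synthesis step itself passed the test in the lens. Acaca was at 19.1, 20.7 and 24.2 CPM in Ctrl and at 16.4, 16.0 and 20.9 CPM in Qk-iCKO, with overlapping groups (log2 fold change -0.26, SE 0.168, adjusted p = 0.348). Fasn was at 69.3, 59.9 and 64.8 CPM in Ctrl and at 54.1, 52.4 and 54.9 CPM in Qk-iCKO. Every Qk-iCKO library lay below every Ctrl library for Fasn, and the log2 fold change of -0.26 (SE 0.128) did not pass (adjusted p = 0.222). With libraries scaled by their total counts alone, Acaca was at 0.015 and Fasn at 0.029, both with the sign turned, while the median of all genes moved from 0.0064 to 0.29.

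In the NLPCs Acaca was at 162, 138 and 155 CPM in WT and at 178, 177 and 181 CPM in Qk-/- (log2 fold change 0.23, SE 0.0867, adjusted p = 0.136). Fasn was at 523, 388 and 548 CPM in WT and at 735, 464 and 753 CPM in Qk-/-. Replicate 2 was the lowest of its group in both arms, and the groups overlapped through it. Fasn was higher in Qk-/- within each replicate number, but no label pairs these libraries. The log2 fold change of Fasn was 0.42 (SE 0.203, adjusted p = 0.231), and 0.40 with the replicate block (adjusted p = 0.0361). Without Qk-/- replicate 2 it was 0.62 (adjusted p = 0.00842).

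In HLE-B3 cells these enzymes went opposite ways. ACACA rose from 126, 138 and 132 CPM to 154, 167 and 153 CPM (log2 fold change 0.26, SE 0.0596, adjusted p = 0.0028). FASN fell from 122, 125 and 119 CPM to 94.0, 91.9 and 94.9 CPM (log2 fold change -0.39, SE 0.0561, adjusted p = 4.66e-05). Neither pair of groups overlapped.

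The elongases came next. Elovl6, which lengthens palmitate, was at 22.5, 18.7 and 23.1 CPM in Ctrl lenses and at 9.45, 16.0 and 14.9 CPM in Qk-iCKO lenses. The groups did not overlap, with Qk-iCKO replicate 1 the lowest, and the log2 fold change of -0.68 (SE 0.219) did not pass edgeR's test (adjusted p = 0.0903). It passed when every gene with at least 1 count was kept (adjusted p = 0.0275). In the NLPCs Elovl6 was at 129, 117 and 112 CPM in WT and rose to 189, 183 and 175 CPM in Qk-/- (log2 fold change 0.61, SE 0.0863, adjusted p = 0.00432). That is 1.53 times the WT mean. Without WT replicate 3 the adjusted p was 0.0536. ELOVL6 in HLE-B3 cells rose from 13.6, 13.7 and 13.0 CPM to 20.4, 19.7 and 20.5 CPM, or 1.51 times (log2 fold change 0.59, SE 0.0887, adjusted p = 6.39e-05).

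Elovl5, which lengthens polyunsaturated fatty acids, was at 5.22, 5.42 and 6.45 CPM in Ctrl lenses and at 7.24, 10.3 and 6.97 CPM in Qk-iCKO lenses (log2 fold change 0.51, SE 0.209, unadjusted p = 0.0415, adjusted p = 0.156 by edgeR). The groups did not overlap. In the NLPCs it was at 191, 184 and 184 CPM in WT and at 163, 182 and 173 CPM in Qk-/- (log2 fold change -0.11, SE 0.0791, adjusted p = 0.413), also without overlap but by a narrow margin. ELOVL5 in HLE-B3 cells rose from 487, 493 and 526 CPM to 623, 660 and 608 CPM (log2 fold change 0.33, SE 0.0525, adjusted p = 0.000114).

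Among the desaturases of polyunsaturated fatty acids, Fads1 (Δ5 desaturase) fell in the lens from 52.4, 54.3 and 50.1 CPM in Ctrl to 26.0, 37.9 and 19.7 CPM in Qk-iCKO. The Ctrl libraries lay close together and the Qk-iCKO libraries spread widely below them (log2 fold change -0.91, SE 0.233, adjusted p = 0.0450), at 0.533 times the Ctrl mean. The call was lost without Ctrl replicate 1 (adjusted p = 0.132), 2 (0.131) or 3 (0.115), without Qk-iCKO replicate 1 (0.0863) or 3 (0.0596), and with total counts alone (0.203). In the NLPCs Fads1 was at 415, 360 and 399 CPM in WT and at 342, 252 and 326 CPM in Qk-/- (log2 fold change -0.35, SE 0.126, adjusted p = 0.122). FADS1 in HLE-B3 cells fell from 98.1, 89.7 and 91.3 CPM to 78.4, 77.6 and 76.3 CPM (log2 fold change -0.27, SE 0.0601, adjusted p = 0.0025). Groups did not overlap in any of the 3 systems.

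Fads2 (Δ6 desaturase) did not follow Fads1 in the lens, at 6.71, 9.62 and 6.04 CPM in Ctrl and 5.89, 9.97 and 6.16 CPM in Qk-iCKO. The groups overlapped throughout (log2 fold change -0.030, SE 0.275, adjusted p = 0.958), and the sign turned without Ctrl replicate 2 (0.19) or Qk-iCKO replicate 1 (0.11) or 3 (0.071). In the NLPCs it was lower, from 1063, 1152 and 1062 CPM in WT to 686, 480 and 719 CPM in Qk-/- (log2 fold change -0.80, SE 0.149, adjusted p = 0.0141). The Qk-/- mean was 0.575 times that of WT, and the call was lost without WT replicate 1 (adjusted p = 0.0700), 2 (0.0693) or 3 (0.0811) or Qk-/- replicate 1 (0.0504). FADS2 in HLE-B3 cells fell from 12.1, 12.3 and 9.24 CPM to 6.26, 6.46 and 7.60 CPM (log2 fold change -0.73, SE 0.139, adjusted p = 0.000614). FADS1 and FADS2 overlap on opposite strands in the GRCh37 annotation (chr11:61567099-61596790, minus, and chr11:61560452-61634826, plus). The libraries were stranded, the strand setting of the count is not given in the sources used here, and a split of shared reads between these genes was not tested.

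Scd2 (chr19:44293674-44306864, plus strand, GRCm38) gave the largest fold change among the members in the lens. It was at 695, 529 and 595 CPM in Ctrl and fell to 305, 220 and 284 CPM in Qk-iCKO (log2 fold change -1.17, SE 0.199, adjusted p = 0.0106), which is 0.445 times the Ctrl mean. No Qk-iCKO library came near the lowest Ctrl library. The adjusted p was 0.0584 without Ctrl replicate 1 and 0.122 with total counts alone, at a log2 fold change of -0.84. In the NLPCs Scd2 was lower too, from 4451, 4147 and 4228 CPM in WT to 2859, 2095 and 2673 CPM in Qk-/-, or 0.595 times (log2 fold change -0.75, SE 0.122, adjusted p = 0.00766). That call was lost without WT replicate 1 (adjusted p = 0.0527) or 3 (0.0575). SCD in HLE-B3 cells fell from 69.7, 70.4 and 62.1 CPM to 48.3, 52.1 and 51.5 CPM (log2 fold change -0.41, SE 0.0686, adjusted p = 0.000169).

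Scd1, the paralog of Scd2 (chr19:44394455-44407879, minus strand), did not move with it in the lens. It was at 1.82, 2.42 and 1.85 CPM in Ctrl and at 3.68, 2.52 and 1.92 CPM in Qk-iCKO (log2 fold change 0.43, SE 0.320, adjusted p = 0.429), with overlapping groups and at most 60 counts in a library. In the NLPCs it was at 418, 406 and 410 CPM in WT and at 343, 256 and 342 CPM in Qk-/- (log2 fold change -0.39, SE 0.121, adjusted p = 0.0813). The groups there did not overlap, and DESeq2 (adjusted p = 0.0228) and edgeR without Qk-/- replicate 2 (0.0251) called the change. Scd1 and Scd2 are close in sequence, so the counting could split their reads, which was not tested.

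Levels of different genes were compared per kilobase of merged exons. Scd2 was the highest member in the mouse systems, at 111 ± 15.2 CPM per kb (SD, n = 3) in Ctrl lenses and 783 ± 28.8 in NLPC WT, or 77.0% and 52.5% of the sum over the 10 members. In Ctrl lenses Fads1 came next at 10.9 ± 0.439 CPM per kb, then Acly (7.24), Fasn (5.91), Elovl6 (3.33), Fads2 (2.26), Elovl5 (1.62), Acaca (1.25), Scd1 (0.416) and Acss2 (0.178). Of these neighbours in order, only Elovl6 and Fads2 overlapped in their libraries. In Qk-iCKO lenses Scd2 remained first at 49.4 ± 8.13 CPM per kb and Acly was second at 8.55 ± 0.149, above Fads1 at 5.79 ± 1.93.

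In NLPC WT Fads2 stood second at 332 ± 15.7 CPM per kb, followed by Scd1 (84.1), Fads1 (81.3) and Acly (79.0), whose libraries overlapped between neighbours. Elovl5 (52.9), Fasn (44.4), Elovl6 (18.6), Acaca (8.90) and Acss2 (6.40) followed without overlap. HLE-B3 WT cells had another order, with ELOVL5 first at 132 ± 5.51 CPM per kb and ACLY second at 72.3 ± 0.921. FASN (13.1) and SCD (12.8) overlapped, and below them came ACACA (10.2), FADS1 (9.10), ELOVL6 (1.85), ACSS2 (1.63) and FADS2 (1.06). The 3 tables were scaled separately and the human gene models differ in length, so these orders are given side by side.

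**Figure D3:**
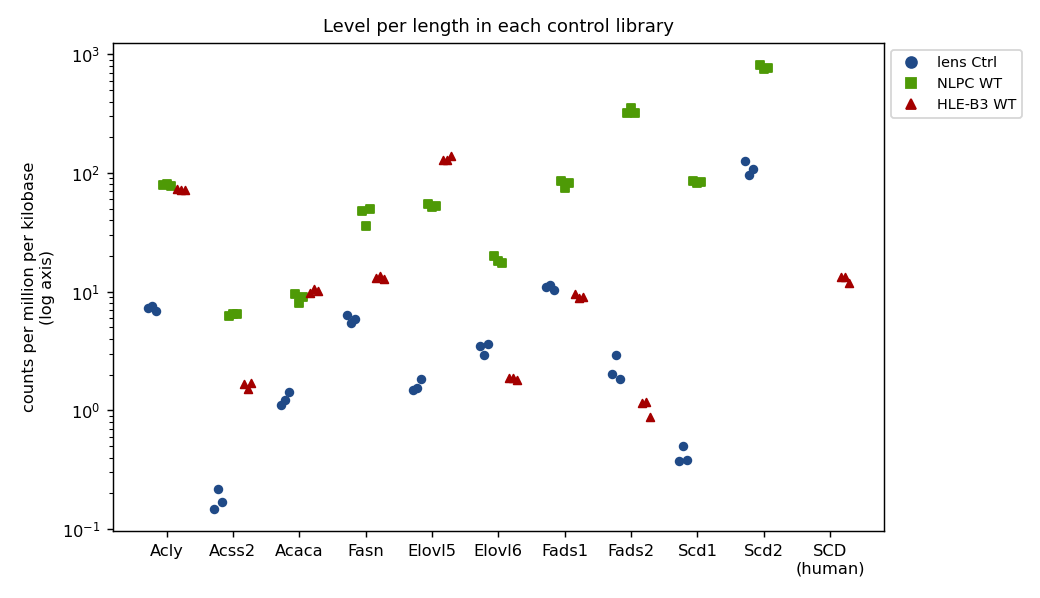
CPM per kilobase of merged exons (log axis) in each control library of the lens (circles), NLPCs (squares) and HLE-B3 cells (triangles). Scd2 leads in both mouse systems (means 111 and 783), while Scd1 is at 0.416 in the lens and 84.1 in NLPCs.

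The balance of the stearoyl-CoA desaturase pair can be read within a library. Per kilobase, Scd2 exceeded Scd1 by 196 to 341 times in Ctrl lenses and by 74.3 to 133 times in Qk-iCKO lenses, so that Scd2 made up 99.5% to 99.7% and 98.7% to 99.3% of the pair. In the NLPCs the ratio was 9.14 to 9.52 in WT and 6.99 to 7.46 in Qk-/-, or 90.1% to 90.5% and 87.5% to 88.2%. Neither pair of ranges overlapped. In the lens the ratio rests on 19 to 60 counts of Scd1 per library, and the change of Scd1 itself was not called there.

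The difference in response between systems was then tested itself, as an interaction in joint fits. These fits scaled and filtered the libraries together, so a difference need not equal the gap between the separate fold changes. For Elovl6, at 0.61 in the NLPCs and -0.68 in the lens when fitted separately, that gap is the smaller of the 2 values. Between the NLPCs and the lens, the change of Elovl6 differed by 1.39 on the log2 scale (SE 0.248, adjusted p = 0.00479). It was the only one of 10 members called, where 8.53% of the 16675 genes tested were, 3.21% with a positive and 5.33% with a negative difference. With the replicate block there were 2, as Fasn joined (difference 0.76, adjusted p = 0.0232; 0.78, SE 0.244 and 0.0719 without the block). For Scd2 the difference was 0.51 (SE 0.254, adjusted p = 0.249) and for Fads2 -0.68 (SE 0.315, adjusted p = 0.216), so a difference between the systems was not shown for either.

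Between HLE-B3 cells and the lens, 3 of the 8 members matched by symbol differed with a positive sign, where 23.4% of 14196 genes did, 12% above and 11.4% below 0. ELOVL6 differed by 1.42 (SE 0.214, adjusted p = 0.000172), FADS1 by 0.79 (SE 0.228, adjusted p = 0.0192) and ACACA by 0.67 (SE 0.172, adjusted p = 0.00933). The separate fits gave 0.59 in HLE-B3 cells and -0.68 in the lens for ELOVL6. They gave -0.27 and -0.91 for FADS1, and 0.26 and -0.26 for ACACA. These gaps are smaller than the differences of the joint fit. The members not called also had joint differences above the gap of their separate fits. FASN, for one, differed by 0.024 in the joint fit, with -0.39 in HLE-B3 cells and -0.26 in the lens when fitted separately. With total counts alone FADS1 and ACACA were no longer called (adjusted p = 0.460 and 0.635), while FADS2 (-1.02, adjusted p = 0.0228) and ACSS2 (-1.28, 0.0493) were called with a negative sign. Between HLE-B3 cells and the NLPCs, FASN differed by -0.82 (SE 0.204, adjusted p = 0.0114), 1 of 8 where 17% of genes did, 7.96% below and 9.08% above 0. ELOVL6 differed by -0.035 there (SE 0.203, adjusted p = 0.958) and FADS2 by 0.063 (SE 0.265, adjusted p = 0.924).

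In HLE-B3 cells the 50 tested genes nearest to a member on its chromosome often had a shared shift. Their median log2 fold change was 0.40 around ACACA, 0.39 around ELOVL6, 0.34 around ELOVL5 and 0.24 around ACLY, the 4 members that rose. Around the 4 that fell it was -0.0046 for FASN, -0.048 for both FADS1 and FADS2, and -0.073 for SCD. Less that median, ELOVL5 stood at -0.0061, ACLY at 0.036, ACACA at -0.14 and ELOVL6 at 0.20. FADS2 stood at -0.68, FASN at -0.38, SCD at -0.34 and FADS1 at -0.22. The falls thus moved by at most 0.073 against the neighbourhood, while 2 of the 4 rises turned sign and ACLY nearly reached 0. The part of the neighbourhood in the rises was not tested further.

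**Figure D4:**
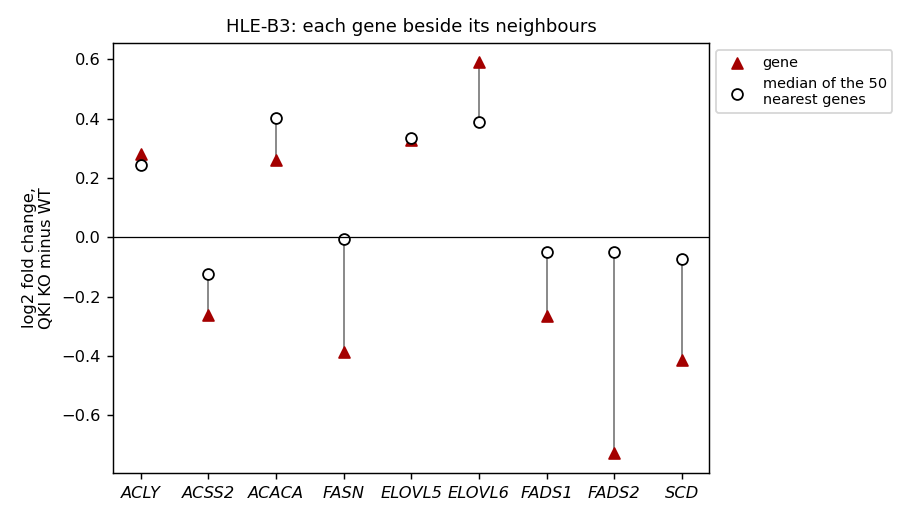
Log2 fold change of QKI KO minus WT in HLE-B3 cells for each gene (triangles) and the median of the 50 tested genes nearest on its chromosome (open circles), joined by a line. The neighbours of ACACA, ELOVL5 and ACLY have medians of 0.40, 0.34 and 0.24, near or above the genes themselves, while those of FASN, FADS1, FADS2 and SCD lie within 0.073 of 0.

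Other genes of fatty acid metabolism were read in the same fits, from lists on supply and cofactors, elongation, other desaturases, activation, regulators, mitochondrial synthesis and mitochondrial oxidation. Of 40 tested in the lens, 1 was lower and 4 were higher, close to the shares of 3.88% and 8.38% among all genes. Acsl5, which activates long-chain fatty acids to acyl-CoA, rose from 2.73, 2.50 and 2.68 CPM in Ctrl to 14.5, 10.7 and 11.1 CPM in Qk-iCKO (log2 fold change 2.20, SE 0.189, adjusted p = 0.000796). Acsl4, another acyl-CoA synthetase, rose (1.40, adjusted p = 0.0162), as did Hsd17b12 of the elongation cycle (0.87, adjusted p = 0.0236) and Cpt1b, a carnitine palmitoyltransferase (2.18, adjusted p = 0.0255), which stood at 0.412 to 0.580 CPM in Ctrl and 1.29 to 3.74 CPM in Qk-iCKO. Hacd2, a dehydratase of the elongation cycle, fell (-0.76, adjusted p = 0.0362). The macrophage markers given above were higher in the same 3 libraries.

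Of 44 such genes tested in the NLPCs, 9 were lower and 6 higher in the libraries labelled Qk-/-, where 5.96% and 4.74% of all genes were called. Of 11 genes of mitochondrial fatty acid oxidation, 6 were lower, among them Cpt1a, which admits fatty acids to mitochondria, at 123, 120 and 129 CPM in WT and 82.0, 58.6 and 80.3 CPM in Qk-/- (log2 fold change -0.75, adjusted p = 0.0114). The others were Hadha (-0.67, adjusted p = 0.0257), Hadhb (-0.66, 0.0039), Acadl (-0.65, 0.0371), Acadvl (-0.57, 0.0219) and Acadm (-0.35, 0.0256). Idh1, a source of NADPH (-0.72, adjusted p = 0.00489), Mid1ip1, a partner of acetyl-CoA carboxylase (-0.77, 0.0130), and Hsd17b12 (-0.55, 0.00502) were lower as well. Thrsp, a regulator of lipogenesis and relative of Mid1ip1, went the other way, from 134, 143 and 141 CPM to 272, 251 and 319 CPM (log2 fold change 1.01, SE 0.104, adjusted p = 0.00107). Fads6 (2.15, adjusted p = 0.00565), Acsl1 (0.86, 0.0202), Elovl7 (0.82, 0.0289), Acsl4 (0.62, 0.00641) and Acsl3 (0.39, 0.0215) were also higher.

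Of 41 tested in HLE-B3 cells, 6 were lower and 8 higher, close to the shares of 16.3% and 17% among all genes. ELOVL2, which lengthens the longest polyunsaturated fatty acids, fell from 22.6, 20.3 and 20.8 CPM to 9.06, 7.85 and 8.19 CPM (log2 fold change -1.34, SE 0.101, adjusted p = 3.68e-08). ELOVL7 (-1.09, adjusted p = 0.0461), CPT1A (-0.51, 0.0427), HSD17B12 (-0.41, 0.000907) and ACADVL (-0.34, 0.000138) were lower as well. ELOVL1, which extends saturated chains, rose (0.53, adjusted p = 0.000689), and so did SCD5, the second human stearoyl-CoA desaturase, from 35.5, 32.6 and 37.3 CPM to 51.8, 43.1 and 50.5 CPM (0.46, adjusted p = 0.00028). SLC25A1, the citrate carrier that feeds ACLY (0.34, adjusted p = 0.0017), IDH1 (0.34, 0.0101) and ME1, another source of NADPH (0.31, 0.0260), rose too.

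The genes most like Fasn were ranked by the mean over the 3 systems of Pearson's r across the 6 libraries of a system, among 9398 genes tested in all 3. COL4A1, a chain of basement membrane collagen, had the highest mean r at 0.945, followed by PLEKHH2 (0.923), TOP3B (0.913), ARHGAP31 (0.910) and MTMR3 (0.904). The 6 libraries of a system are 3 control and 3 deletion libraries and differ in depth, so these values describe patterns only. Among the members FADS1 had the highest mean r with Fasn (0.558, rank 519) and ELOVL5 the lowest (-0.831, rank 9376).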

How the data were processed

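The members and gene lists were chosen with earlier results of these data known. The authors prepared stranded paired-end libraries, aligned reads with 2-pass STAR 2.6.1b to mm10 or hg19 and counted them with HTSeq 0.11.0; their processing notes also name HISAT2 2.0.4 and featureCounts. What they deposited is 1 table of unnormalised counts for each system. Each table was fitted on its own in R 4.3.3 using edgeR 4.0.16 and its quasi-likelihood test (filterByExpr with minimums of 10 and 15 counts, TMM, no covariates), with Benjamini-Hochberg adjustment over all genes tested and calls at an adjusted p under 0.05. Differences between systems were tested as interactions in joint fits of 12 or 18 libraries, with genes matched by symbol; SCD has no such match. SE is that of the log2 fold change. For groups of 3, the smallest p of an exact permutation test is 0.1. Levels per kilobase use merged exons of GENCODE gene models on GRCm38 and GRCh37.

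The genes named are all members, Qk or QKI, every other listed fatty acid gene called in the lens or NLPCs, in HLE-B3 cells the 10 with the largest change among those called, and the 5 genes most like Fasn. Deviations of same-numbered libraries from their group means correlated at 0.233, 0.133 and 0.523 in the lens. In the NLPCs the correlations were 0.123, 0.320 and 0.145, and in HLE-B3 cells 0.0613, 0.0566 and -0.0495. The same number was the best match only for lens replicate 3 and NLPC replicate 2, and no label pairs these libraries. The block is therefore an alternative only, given beside mouse results where it changes them. The alternatives were RLE size factors, total counts alone, TMM without crystallins (lens), looser or stricter count filters, DESeq2 1.42.0, the replicate block, each library left out in turn, and changes less those of neighbouring genes (HLE-B3). The fits were also run on counts simulated from each system's own dispersions with known changes, and no result here rests on that run. Human promoter sequences are not reported here.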

Additional observations from a re-analysis of the deposited data

Results flagged for a closer look

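The change upon deletion differed between systems, by a test of the difference itself, for 5 pairs of a gene and a contrast. Elovl6 differed by 1.39 on the log2 scale between the NLPCs and the lens, being lower in every Qk-iCKO lens than in any Ctrl lens and higher in every NLPC library labelled Qk-/- than in any WT library. Between HLE-B3 cells and the lens, ELOVL6 differed by 1.42, FADS1 by 0.79 and ACACA by 0.67, each more than the gap between the separate fits. FASN differed by -0.82 between HLE-B3 cells and the NLPCs. The ACACA and ELOVL6 values in HLE-B3 cells stand beside neighbours with median changes of 0.40 and 0.39, and the species, the cell type and the way the gene was deleted cannot be told apart in any contrast with HLE-B3 cells.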

How the results depend on the processing

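With total counts alone, the lens had 0 members lower. The member median was 0.12 there, with the sign turned, as all genes shifted to a median of 0.29. The TMM factor that this setting drops was 1.47 in Qk-iCKO replicate 1 and 0.887 to 0.960 in the other lens libraries. Acaca (0.015), Fasn (0.029) and Fads2 (0.21) turned sign too. Calls over all genes went from 473 lower and 1023 higher to 116 and 768. The same scaling turned the sign of the difference between NLPCs and lens for Acly (-0.19), between HLE-B3 cells and lens for ACLY (-0.33) and FASN (-0.50), and between HLE-B3 cells and NLPCs for ACACA (-0.038). NLPC members called higher numbered 2 on genes with at least 10 counts in every library, with DESeq2 and with the replicate block. Members whose change differed between lens and NLPCs numbered 3 with DESeq2 and 2 with the replicate block. Less the 50 nearest genes, the HLE-B3 median was -0.14, ACACA -0.14 and ELOVL5 -0.0061.

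Leaving out 1 library at a time gave 0 to 2 lower members in the lens, with Fads2 at -0.31 to 0.19. In the NLPCs it gave 0 to 4 lower and 0 to 3 higher members, with 0 lower without WT replicate 1 or 3 and the highest counts without Qk-/- replicate 2, the shallowest NLPC library. HLE-B3 cells kept 4 lower and 4 higher each time, with a median of -0.28 to -0.15. Lens against NLPC gave 1 or 2 members. In HLE-B3 cells the replicate block also gave 4 lower and 4 higher. In no system do the labels pair libraries beyond a shared number. The block changed no call of a member other than those of Fasn, in the single systems and in the differences between them. Counts of 17 to 60 for Acss2 and Scd1 in the lens limit what could be seen there.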
